A study of Homo sapiens with 9 samples.

Results

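The genes described here are 10 imprinted genes, DLK1, DIO3, MEG3, H19, IGF2, CDKN1C, PEG10, SGCE, PEG3 and MEST, followed in A2780 cells exposed to DIG-MSK. A2780 cells are an established human line from an ovarian carcinoma. DIG-MSK is an analogue of the antibiotic mithramycin, which binds the minor groove of DNA in C/G-rich tracts. RNA came from 3 untreated cultures and from cultures that received DIG-MSK for 24 h, 3 at 8 nM and 3 at 80 nM, and each RNA was labeled with Cy3 and read on a separate array, 9 in all. All groups derive from the same line, so the values describe a single cell line and not ovarian tumors in general. The genes were taken by the RefSeq transcript that each probe was designed for, which gave 15 probes of the 42405 gene probes on the array. Of these, 13 probes stood well above background on every array of some group, and through them each of the 10 genes was among the 21832 genes tested. DLK1 and DIO3 were chosen by their measured fall at 80 nM, so their values at that concentration are given as a description, without a test.

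An imprinted gene is transcribed mainly from the copy inherited from a single parent, which is marked in the germ line by DNA methylation. Imprinted genes lie in clusters, where a methylated control region sets the expression of several neighbours, and long noncoding RNAs such as MEG3 and H19 come from the maternal copy while neighbours such as DLK1 and IGF2 come from the paternal copy. Many of them regulate fetal growth, and they are often expressed again, or lost, in tumors.

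Replicate arrays were close to each other. Correlations between arrays of the same group lay between 0.989 and 0.9956, no gene spot was saturated, and 3 arrays per group limit the precision. The untreated and 8 nM arrays lay on slide 1, and all 80 nM arrays lay on slide 2, in another scan, so whatever separates the slides cannot be told apart from the response to 80 nM. The net signal of the negative controls was 31.1 to 38.6 on slide 1 and 22.1 to 22.7 on slide 2. Of 6 epithelial markers, 5 (EPCAM, KRT7, KRT8, KRT18 and KRT19) were well above background on every array, but CDH1 was not, and none of the 3 ovarian carcinoma markers sought (PAX8, WT1 and MUC16) was, in any group. The fibroblast markers DCN, PDGFRB and THY1 were also well above background on every array, and the summed level of the fibroblast list was 9.09 to 9.71 times the 75th percentile in untreated cells and at least 10.1 times at 80 nM. Most of that sum was THY1, at 3.18 on the log2 scale in untreated cells and 3.36 at 80 nM (limma adjusted p = 0.1). PDGFRB changed by 0.0. Of the leukocyte and endothelial lists, CD14, PTPRC and CDH5 were well above background on every array. DCN was lower at 80 nM (-1.39 on the log2 scale), and EPCAM was higher at 8 nM (0.90) and lower at 80 nM (-0.91); their part in the results was not tested. In RNA from whole cultures, fewer cells that express a gene and less RNA per cell cannot be told apart.

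Because DIG-MSK binds C/G-rich DNA, the sequence before the transcription start is shown for genes of unlike response: DIO3, which was at background at 80 nM, MEG3 and H19, noncoding RNAs of the maternal copy, and the start shared by PLAGL1 and HYMAI, imprinted genes that rose. Each window holds the 250 bases before a start in RefSeq on GRCh38.p14, read 5′ to 3′ on the strand of the gene. The windows are chr14:101561245-101561494 on the plus strand for DIO3, chr14:100825858-100826107 on the plus strand for MEG3 (the first of its listed starts), chr11:2001267-2001516 on the minus strand for H19 and chr6:144008260-144008509 on the minus strand for PLAGL1 and HYMAI. Capitals mark the GC box, GGGCGG or its reverse complement CCGCCC, the core of the site that the factor Sp1 reads.
DIO3: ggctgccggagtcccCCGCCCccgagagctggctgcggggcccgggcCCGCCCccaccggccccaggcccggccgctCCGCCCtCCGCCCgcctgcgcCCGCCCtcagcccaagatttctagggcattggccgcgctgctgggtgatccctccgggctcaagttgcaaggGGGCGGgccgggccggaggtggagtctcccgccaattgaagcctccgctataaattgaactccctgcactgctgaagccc
MEG3: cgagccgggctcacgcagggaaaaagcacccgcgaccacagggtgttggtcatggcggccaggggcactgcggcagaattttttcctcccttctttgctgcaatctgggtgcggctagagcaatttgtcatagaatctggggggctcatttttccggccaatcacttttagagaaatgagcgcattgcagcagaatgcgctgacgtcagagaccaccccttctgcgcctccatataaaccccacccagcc
H19: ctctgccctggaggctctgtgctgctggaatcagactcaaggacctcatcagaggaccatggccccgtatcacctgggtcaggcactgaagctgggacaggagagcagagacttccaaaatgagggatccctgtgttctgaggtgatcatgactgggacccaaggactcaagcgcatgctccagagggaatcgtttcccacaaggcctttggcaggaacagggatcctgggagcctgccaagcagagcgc
PLAGL1 and HYMAI: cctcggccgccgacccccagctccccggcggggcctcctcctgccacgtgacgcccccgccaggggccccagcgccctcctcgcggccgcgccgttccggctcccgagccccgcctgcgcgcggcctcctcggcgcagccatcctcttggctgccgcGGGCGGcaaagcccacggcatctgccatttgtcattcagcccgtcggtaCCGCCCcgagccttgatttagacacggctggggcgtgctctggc
The DIO3 window held 6 GC boxes and was 73.2% G and C, the H19 and MEG3 windows held 0, and the PLAGL1 and HYMAI window held 2 and was 75.6% G and C. Further listed starts of PLAGL1 held 3 or 0. The window of TFPI2, an imprinted gene that fell by 2.98 on the log2 scale at 80 nM, also held 2 and was 64.4% G and C. Whether GC boxes go with the response was not tested. Of 35116 windows of the same length before RefSeq starts, 42.6% held at least 1 GC box, 24.3% held 2 or more and 2.22% held 6 or more. Their median was 58.0% G and C. The DIO3 window held 22 CpG dinucleotides against a median of 11. These matches describe letters only, and binding was not measured. Of the 10 genes, 4 matched an entry, and MEST, the gene not printed, had 5 listed starts, of which 3 had no GC box and 2, in overlapping windows, had 2 each.

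At the DLK1-DIO3 cluster on chromosome 14, the protein-coding genes DLK1 and DIO3 were lower at 80 nM DIG-MSK, DIO3 falling to background, while MEG3, the noncoding gene between them, did not pass the test by the probe used for it and fell by a second probe. DLK1 encodes a membrane protein with EGF-like repeats, related to the ligands of Notch, that holds back differentiation of adipocyte precursors. Levels here are log2 intensities relative to the 75th percentile of the array. The DLK1 level (NM_003836) was 1.14, 1.57 and 1.57 on the untreated arrays, 1.63, 2.07 and 2.10 at 8 nM, and -4.44, -4.40 and -4.60 at 80 nM. The 80 nM arrays were far below the others, yet DLK1 was still well above background on all 3 of them. The mean was 60.0 times lower at 80 nM than in untreated cells, a log2 change of -5.91, and 85.3 times lower than at 8 nM. A second DLK1 probe for the same transcript gave -1.30, -1.05 and -0.94 untreated, -1.10, -0.73 and -0.58 at 8 nM, and -2.73, -2.80 and -2.78 at 80 nM. Both probes thus placed the 80 nM arrays below all others, but the size differed, with a log2 change of -1.67 (3.19-fold) by the second probe.

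DIO3 encodes the type 3 deiodinase, which inactivates thyroid hormone. Its level (NM_001362) was 0.04, 0.17 and 0.27 untreated, 0.17, 0.74 and 0.58 at 8 nM, and -7.24, -6.21 and -7.16 at 80 nM. On no 80 nM array was the probe well above background, so a bound replaces the fold: DIO3 was at least 67.0-fold lower at 80 nM than in untreated cells and at least 84.8-fold lower than at 8 nM. The bound sets the mean of the brighter group against, per array, the higher of the probe's own signal and the lowest signal well above background. The second DIO3 probe behaved alike, with -4.03, -3.92 and -3.84 untreated, -3.78, -3.78 and -3.27 at 8 nM, and no 80 nM array well above background (at least 3.95-fold lower than untreated).

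Different probes of MEG3, a long noncoding RNA of the maternal copy, gave different results. The probe for NR_002766 stood at 0.05, 0.43 and 0.36 untreated, 0.38, -0.11 and 0.23 at 8 nM, and 0.44, 0.37 and 0.32 at 80 nM. The groups overlapped, and the log2 change at 80 nM was 0.10 (95% interval -0.23 to 0.43, limma adjusted p = 0.56), turning to -0.18 when arrays were scaled to the spike-in probes and to -0.52 (adjusted p = 0.0056) when the MEG3 probes were averaged. The second probe, for NR_003531, stood at -2.37, -2.60 and -2.65 untreated, -2.49, -2.61 and -2.73 at 8 nM, and -3.81, -3.24 and -4.01 at 80 nM. It fell by 1.14 on the log2 scale at 80 nM (SE 0.19, limma adjusted p = 0.0010), with all 80 nM arrays below all others. MEG3 is therefore given by probe and not by a single direction.

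**Figure D1:**
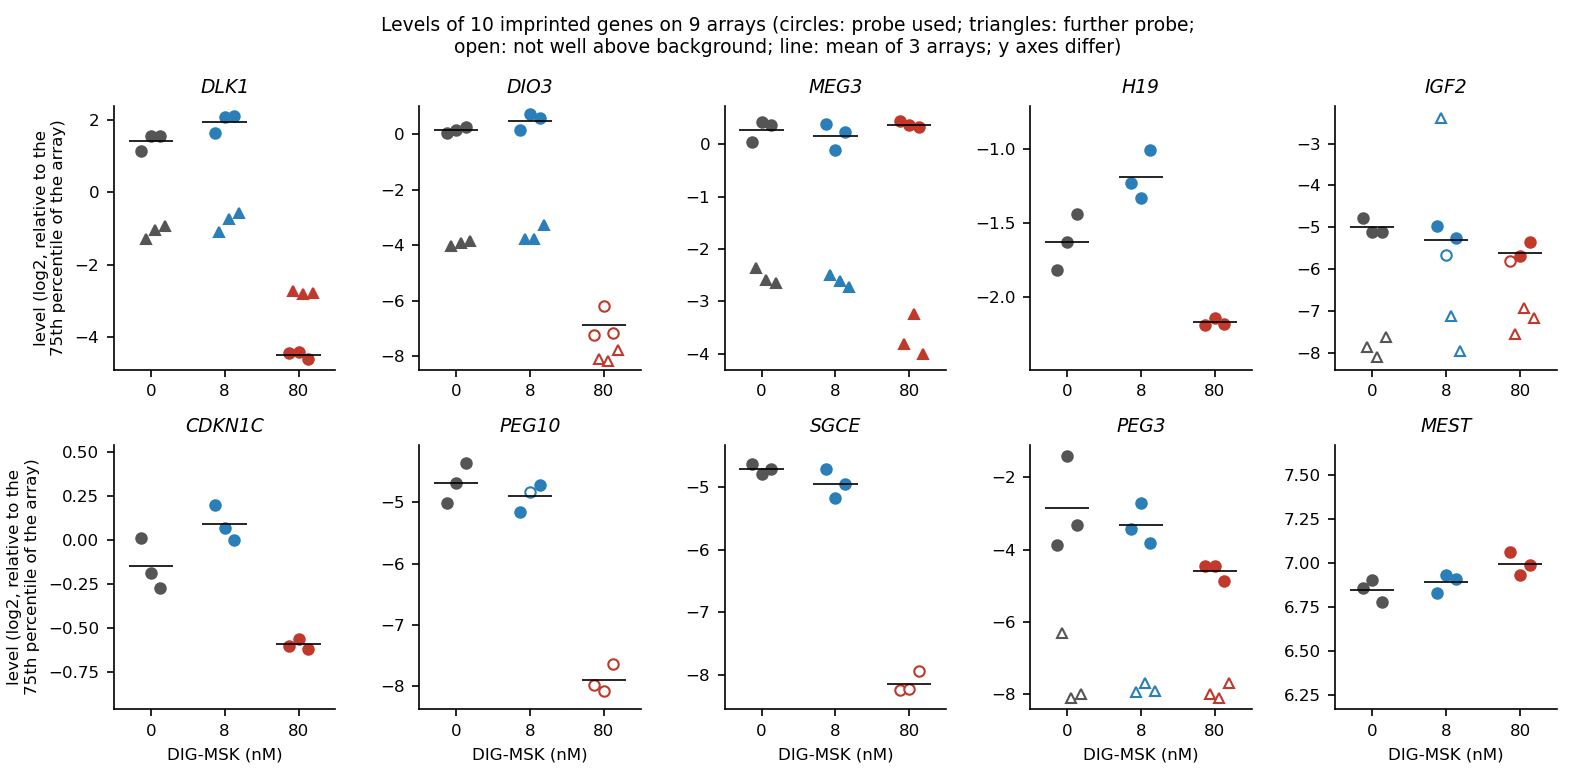
Level of each of the 10 imprinted genes (log2 intensity relative to the 75th percentile of the array, y axes differ) on the 3 arrays each at 0, 8 and 80 nM DIG-MSK. Circles are the probe used, triangles a further probe, open symbols values not well above background, and lines the mean of 3 arrays. The 80 nM arrays of DLK1, DIO3, PEG10 and SGCE lie below all others, while all arrays of MEST lie between 6.78 and 7.06.

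At 8 nM DIG-MSK no gene of the 10 was called, where called means a change of at least 1.5-fold up or to at most 0.67-fold with a limma p under 0.05 after Benjamini-Hochberg adjustment over all 21832 genes. Over all genes 5.09% were called at 8 nM, 3.70% up and 1.39% down. With an unadjusted p under 0.05 in place of the adjusted p, still 0 of the 10 were called, beside 1544 of the 21832 genes. DLK1, H19 and CDKN1C were higher at that unadjusted p, but short of the fold limit. DLK1 had the largest rise of the 10, 0.51 on the log2 scale (SE 0.16, limma adjusted p = 0.076), with all 8 nM arrays above all untreated arrays. Its adjusted p was 0.14 with only the untreated and 8 nM arrays in the fit, which lie on the same slide, and 0.031 with a change of 0.66 without replicate 1 at 8 nM, which made it the only call. The second DLK1 probe gave a change of 0.29 (limma adjusted p = 0.2), with overlapping groups. DIO3 was 0.34 higher (95% interval -0.28 to 0.96, limma adjusted p = 0.42), with overlapping groups. The changes of the 10 genes ranged from -0.46 for PEG3 to 0.51 for DLK1, with a median of -0.04 against -0.06 over all genes.

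At 80 nM, of the 8 genes other than DLK1 and DIO3, 4 were down-regulated (PEG10, SGCE, IGF2 and PEG3) and 0 up-regulated, where 15.9% of all genes were called down and 18.4% up, 34.2% in all. H19 and CDKN1C were lower with an adjusted p under 0.05 but short of the fold limit, and MEG3 and MEST did not pass the test by the probe used. Of the 4 genes called, PEG10, SGCE and IGF2 passed the filter on dim probes only through groups in which they are brighter. The 8 genes were listed with earlier results of these arrays known, so their count describes them and is not a sample of imprinted genes. With arrays scaled to the spike-in probes, the median of all genes at 80 nM moved from 0.08 to -0.20 and the share of calls that were down from 46.4% to 73.4%, and 6 of the 8 genes were called down, H19 and CDKN1C added.

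PEG10 and SGCE sit head to head on chromosome 7q21 and are expressed from the paternal copy. PEG10 is a gene derived from a retrotransposon and needed for the placenta, and SGCE encodes epsilon-sarcoglycan, a membrane protein of the dystrophin complex. The PEG10 level (NM_001040152) was -5.01, -4.69 and -4.36 untreated, -5.16, -4.83 and -4.72 at 8 nM, and -7.98, -8.08 and -7.65 at 80 nM. The SGCE level (NM_001099401) was -4.63, -4.79 and -4.71 untreated, -4.71, -5.18 and -4.95 at 8 nM, and -8.24, -8.22 and -7.94 at 80 nM. Neither gene was well above background on any 80 nM array, and both were dim in untreated cells. PEG10 was at least 2.33-fold lower at 80 nM than in untreated cells (limma adjusted p = 3.6e-06). SGCE was at least 2.30-fold lower (limma adjusted p = 3.6e-07). Both genes entered the test only through the groups in which they are brighter. Neither these p-values nor their part in the count of calls is therefore support for a fall. With normexp background correction the log2 changes were -0.52 for PEG10, short of the fold limit, and -0.67 for SGCE, both smaller than these bounds. That setting adds an offset of 50 to every signal, which shrinks the changes of dim probes, so it cannot decide on the size.

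On chromosome 11p15 lie H19, CDKN1C and IGF2. H19, a long noncoding RNA and precursor of a microRNA, stood at -1.82, -1.63 and -1.44 untreated, -1.23, -1.33 and -1.01 at 8 nM, and -2.19, -2.14 and -2.18 at 80 nM (NR_002196). The 3 groups did not overlap: the 8 nM arrays were the highest and the 80 nM arrays the lowest. H19 was 0.44 higher at 8 nM (SE 0.11, limma adjusted p = 0.041, 1.35-fold) and 0.54 lower at 80 nM, a log2 change of -0.54 (limma adjusted p = 0.0039, 1.46-fold), both short of the fold limit. CDKN1C encodes the cell cycle inhibitor p57 and is expressed from the maternal copy. Its level (NM_000076) was 0.01, -0.19 and -0.27 untreated, 0.20, 0.07 and 0.00 at 8 nM, and -0.60, -0.56 and -0.62 at 80 nM. Every 80 nM array was below every other, and the log2 change against untreated was -0.44 (SE 0.09, limma adjusted p = 0.0033, 1.36-fold).

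IGF2, a fetal growth factor of the paternal copy, was near the limit of detection. Its level (NM_000612) was -4.77, -5.11 and -5.12 untreated, -4.98, -5.67 and -5.25 at 8 nM, and -5.80, -5.68 and -5.35 at 80 nM, and 2 of 3 arrays were well above background at each concentration of DIG-MSK. It fell by 0.61 on the log2 scale at 80 nM (SE 0.19, limma adjusted p = 0.025). IGF2 entered the test only through the untreated group, in which it is brightest, so this call is no support for a fall. That call was lost without untreated replicate 1 (limma adjusted p = 0.087), without replicate 1 at 80 nM (0.084) or without replicate 2 at 80 nM (0.069). The change was -0.09 with normexp, whose offset shrinks the changes of dim probes. A second IGF2 probe was well above background on 0 arrays.

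PEG3, a zinc finger protein of the paternal copy on chromosome 19, had among the probes used the widest spread within a group. Its level (NM_006210) was -3.88, -1.40 and -3.31 untreated, -3.44, -2.71 and -3.83 at 8 nM, and -4.45, -4.45 and -4.86 at 80 nM. Untreated replicate 2 stood apart, and the 80 nM arrays were below all others. The log2 change at 80 nM was -1.72 (SE 0.58, limma adjusted p = 0.032), and -0.99 (adjusted p = 0.041) without that replicate. Without any one of the 80 nM arrays the adjusted p was 0.061 to 0.09. A second PEG3 probe for the same transcript was well above background on 0 arrays. MEST, a member of the alpha/beta hydrolase family expressed from the paternal copy, was 6.86, 6.90 and 6.78 untreated, 6.83, 6.93 and 6.91 at 8 nM, and 7.06, 6.93 and 6.99 at 80 nM (NM_002402). Its log2 change at 80 nM was 0.14 (95% interval -0.02 to 0.31, limma adjusted p = 0.11), and -0.14 with arrays scaled to the spike-in probes.

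**Figure D2:**
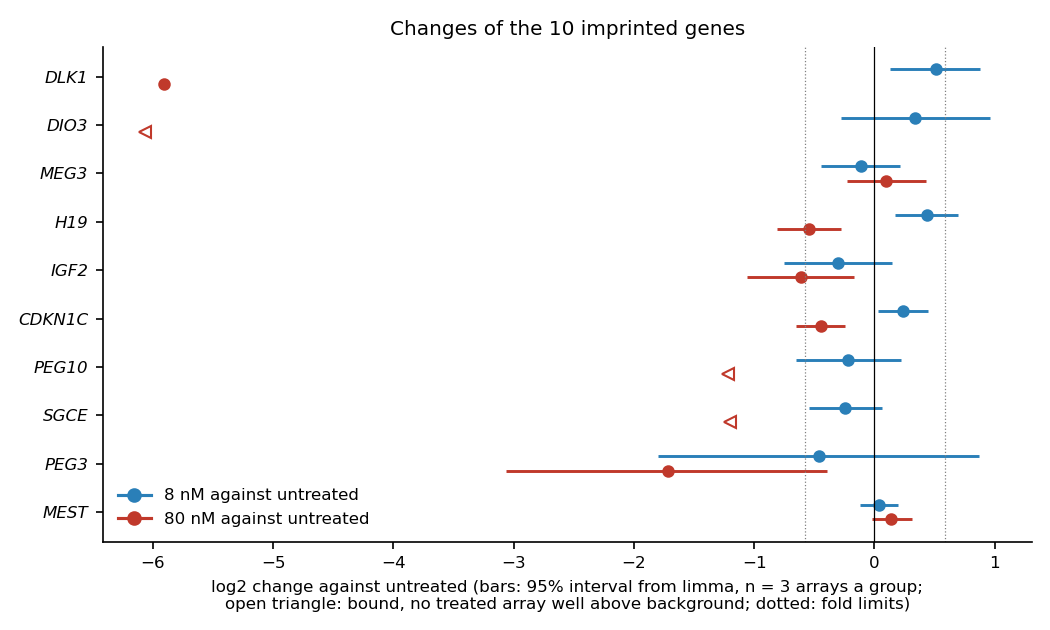
Fitted log2 change against untreated of the 10 genes at 8 nM (blue) and 80 nM (red), with 95% intervals from limma over 3 arrays per group; dotted lines are the fold limits. Open triangles are bounds, for genes with no treated array well above background (DIO3 at least 67.0-fold, PEG10 at least 2.33-fold and SGCE at least 2.30-fold lower at 80 nM). DLK1 carries no interval at 80 nM because it was picked for that fall, and no gene is called at 8 nM.

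Between the concentrations, 4 of the 8 genes not picked for their fall were lower at 80 nM than at 8 nM and 0 were higher, where 13.8% of all genes were called down and 18.9% up, 32.7% in all. These were PEG10 (at least 2.01-fold), SGCE (at least 1.95-fold), H19 and CDKN1C. H19 fell by 0.98 on the log2 scale (limma adjusted p = 0.00018, 1.97-fold) and CDKN1C by a log2 change of -0.68 (limma adjusted p = 0.00035, 1.61-fold). IGF2 (-0.31, adjusted p = 0.20) and PEG3 (-1.26, adjusted p = 0.095) did not pass the test by limma. The comparison uses the same 80 nM arrays as the one against untreated cells. PEG10 and SGCE, at background at 80 nM, entered it only through brighter groups, so their calls here are no support either.

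In gene order around the 10 genes, the 5 nearest tested genes on each side were followed, 57 other genes in all. At 8 nM, 2 of the 57 were called, IFITM10 (1.46 on the log2 scale) and TNNT3 (1.41), both up and on the same side of H19; IFITM10 was well above background on only 1 untreated array. At 80 nM, 7 of the 57 were up-regulated and 10 down-regulated, beside 18.4% and 15.9% of all genes. On chromosome 14, WDR25 and BEGAIN, upstream of DLK1, were down-regulated with log2 changes of -1.25 and -1.06. Beyond DIO3, PPP2R5C (a phosphatase subunit) and DYNC1H1 (the dynein heavy chain) were not called, at -0.43 and 0.25. On chromosome 7q21, COL1A2, a collagen chain, was at least 46.8-fold lower at 80 nM, GNG11, a G protein gamma subunit, at least 5.47-fold lower, and TFPI2 fell by 2.98. COL1A2 and GNG11 passed the filter on dim probes only through groups in which they are brighter. Their calls are thus no support for a fall. CASD1, BET1 and PON2 in the same stretch were not called, at 0.33, 0.18 and 0.33. Around MEST, which was not called, CEP41 (-1.44) and KLHDC10 (-1.44) were down-regulated. Around PEG3, ZNF264 (0.69), ZNF304 (0.65) and the antisense gene ZNF667-AS1 (0.65) were up-regulated.

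**Figure D3:**
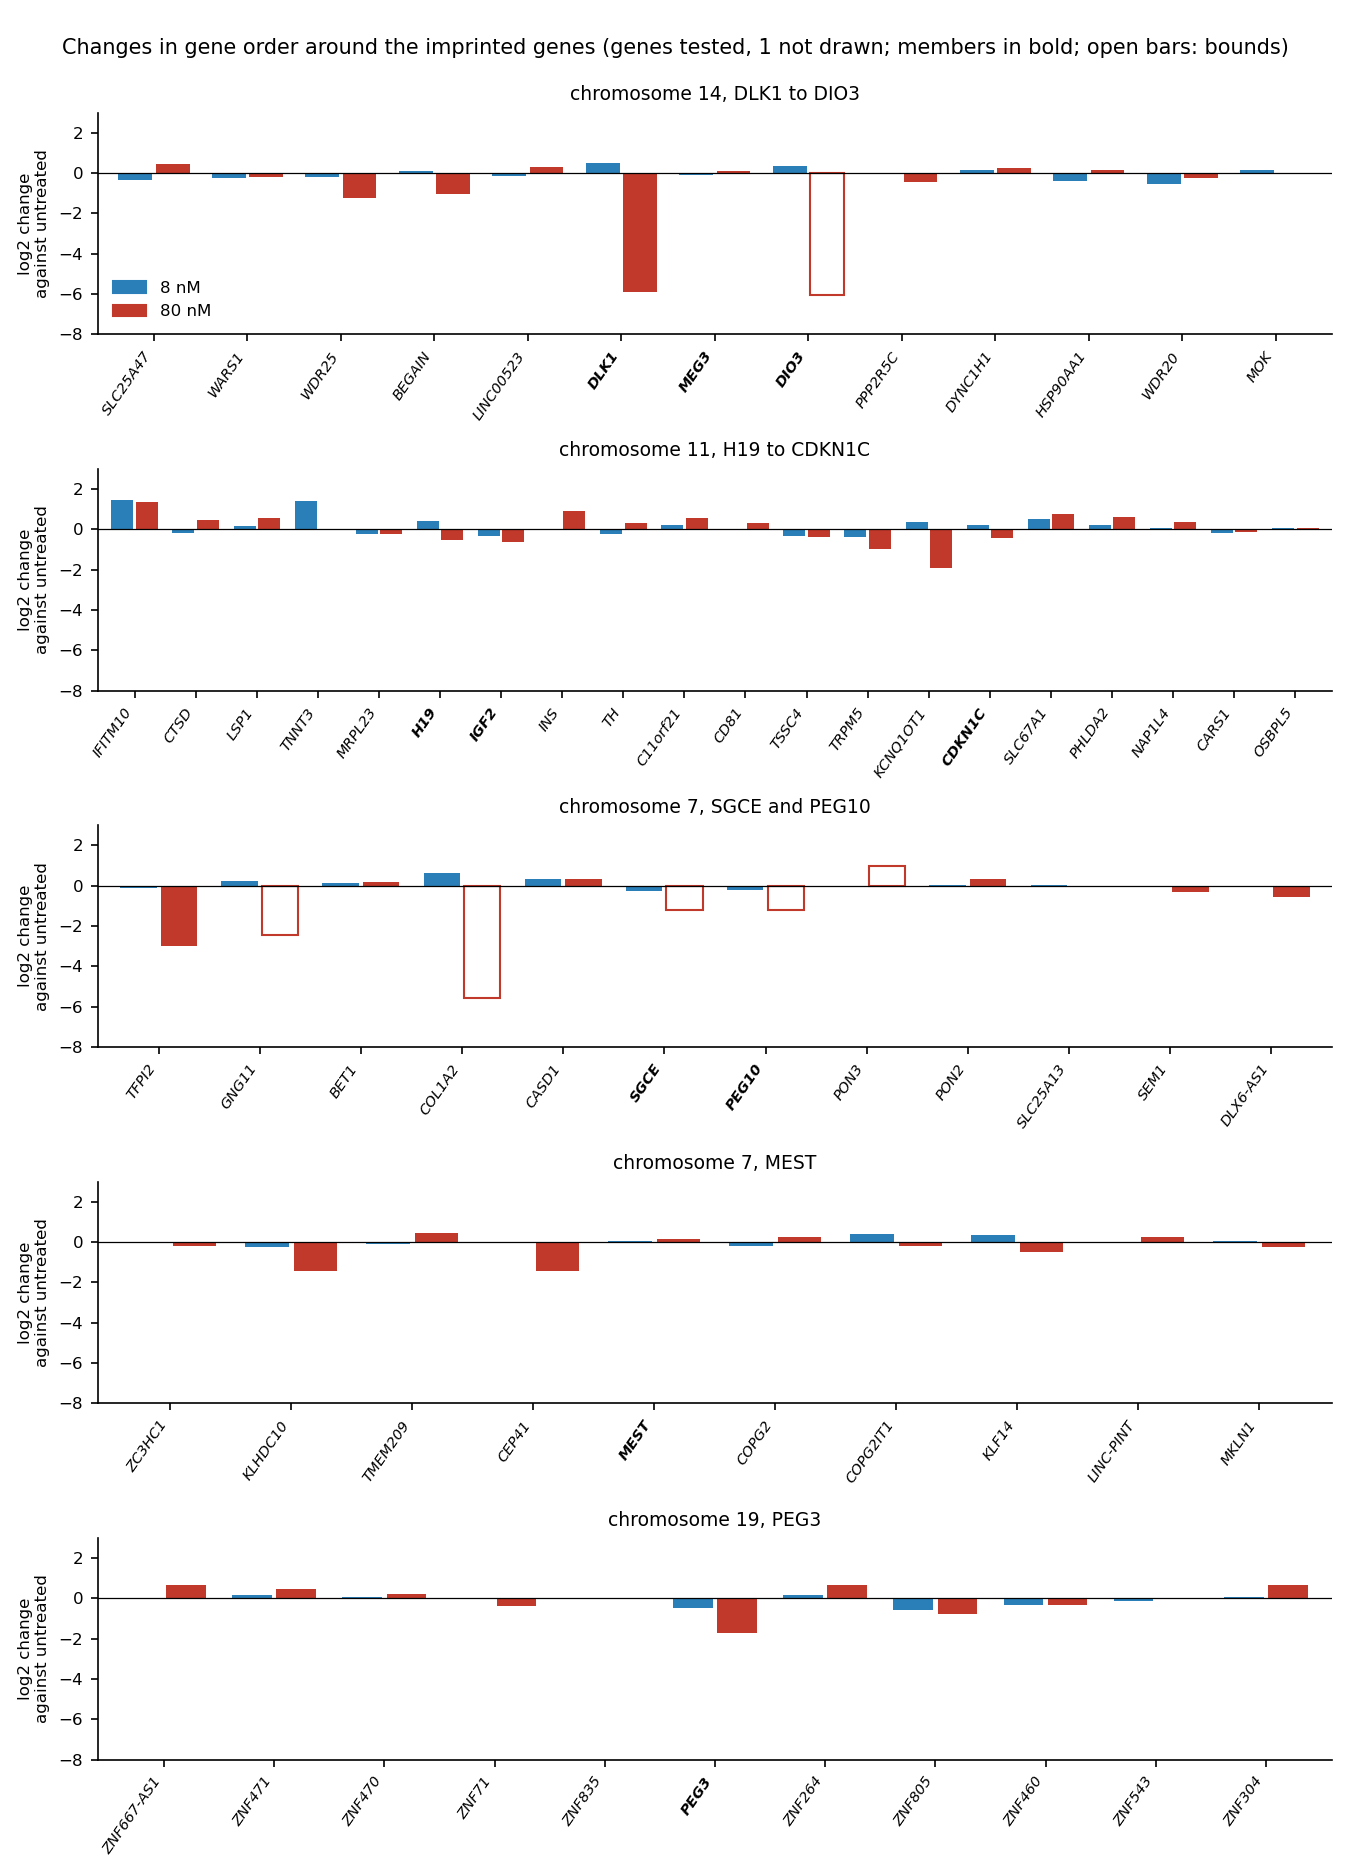
Log2 change against untreated at 8 nM (blue) and 80 nM (red) of the tested genes in gene order around each of the imprinted genes (in bold), with 1 gene not drawn; bars start at 0. Open bars are bounds, for genes well above background on no array of a group compared, and genes so in both groups have no bar. DLK1 and DIO3 have the longest bars on chromosome 14, MEG3 between them is drawn by the probe used and fell by 1.14 by its second probe, and on chromosome 7 COL1A2, GNG11, TFPI2, SGCE and PEG10 fall while BET1, CASD1 and PON2 lie between 0.18 and 0.33.

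Other imprinted genes were also followed: 46 were listed, 41 had a probe, and 30 were tested. At 8 nM, 0 of the 30 were called by limma, beside 5.09% of all genes, and still 0 with an unadjusted p in place of the adjusted p. At 80 nM, 6 of the 30 were up-regulated and 6 down-regulated, near the 18.4% and 15.9% of all genes, with a median log2 change of -0.04 against 0.08 over all genes. The largest fall among those measured in both groups was that of TFPI2, an inhibitor of serine proteases beside the SGCE cluster, at -2.98 (SE 0.26, limma adjusted p = 3e-05). KCNQ1OT1, the noncoding RNA antisense to KCNQ1 in the CDKN1C domain, fell by 1.89 (SE 0.19, limma adjusted p = 5.8e-05), and GRB10, an adaptor that restrains insulin signalling, by a log2 change of -1.11. DDC, which makes dopamine, was at least 2.64-fold lower. It passed the filter on dim probes only through the groups in which it is brighter. Neither its call nor its part in the count is therefore support for a fall. The largest rises were those of PLAGL1, a growth-inhibiting zinc finger protein, at 2.08 (SE 0.13, limma adjusted p = 5.7e-06), and of HYMAI, which shares its start, at 1.91 (limma adjusted p = 3.2e-06). In the CDKN1C domain, PHLDA2 (0.62) and SLC67A1 (0.75, formerly SLC22A18) rose, against KCNQ1OT1. INS rose by 0.90, though it was well above background on only 1 untreated array. It passed the same filter only through the 80 nM group, in which it is brightest, so its call is no support for a rise. A second GRB10 probe fell by 1.00. Second probes of L3MBTL1 (0.98), SMOC1 (0.92) and GNAS (0.77) were higher at 80 nM where the probe used was not called.

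**Figure D4:**
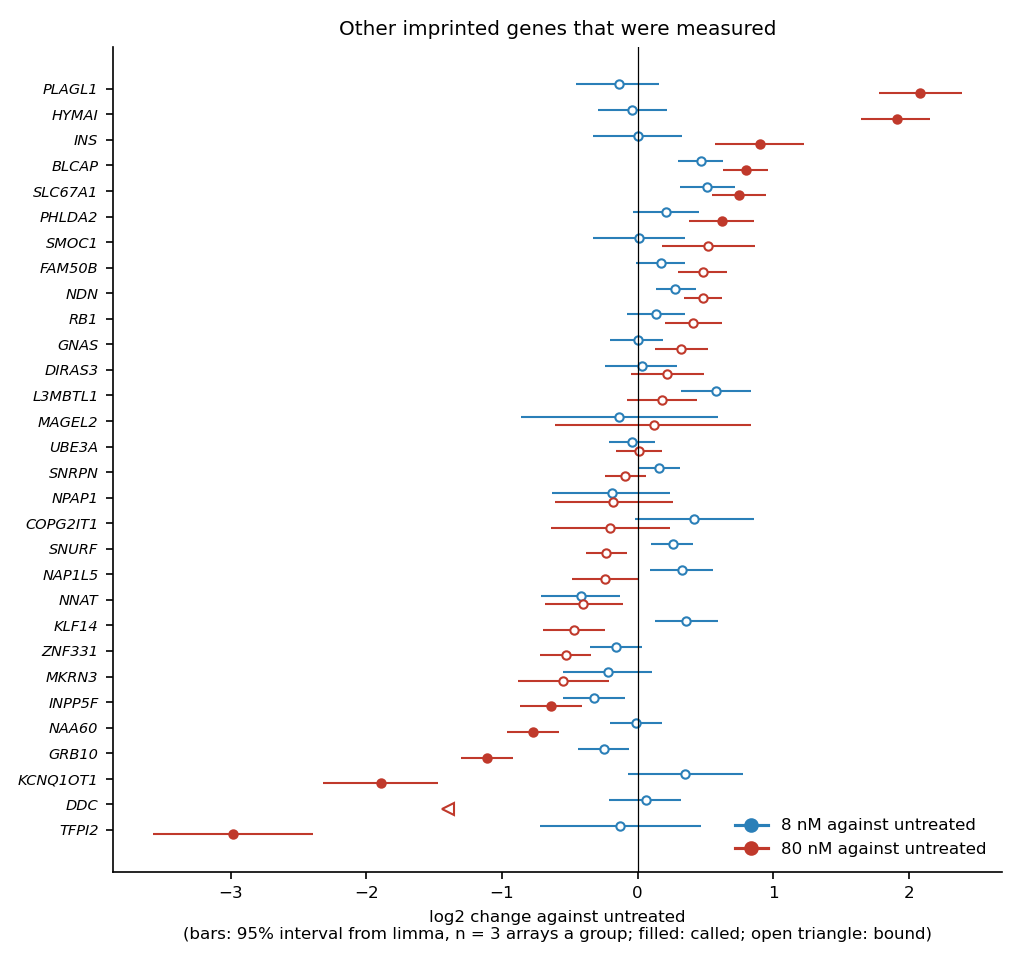
Log2 change against untreated of 30 further imprinted genes at 8 nM (blue) and 80 nM (red), with 95% intervals from limma over 3 arrays per group; filled circles are called, and the open triangle is a bound (DDC, at least 2.64-fold lower). PLAGL1 and HYMAI lie highest and TFPI2 lowest at 80 nM, and no circle at 8 nM is filled.

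Of 10 tested genes that set or keep the imprint, 2 rose and 2 fell at 80 nM, where 18.4% of all genes rose and 15.9% fell. DNMT3A (-1.10) and DNMT3B (-0.82), which set methylation anew, were down-regulated at 80 nM, whereas ZNF445, which protects methylated control regions, rose by 0.79 and KDM1B by 0.73 (0.25 by a second probe). UHRF1, the partner of the maintenance methylase DNMT1, was the only gene of the list called at 8 nM, and fell by 0.74. DNMT1 itself was not called at either concentration. The 3 probes of DNMT3A gave different sizes at 80 nM, -1.10, -0.14 and -2.72, and a second probe of UHRF1 fell by 1.30 at 80 nM, where the first fell by 0.39.

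Partners of the 10 genes were followed too. In the insulin-like growth factor axis, 10 genes were tested and 4 rose at 80 nM, where 18.4% of all genes rose, among them IGFBP6 (2.08) and IGFBP2 (0.94), which bind the growth factors, and the clearance receptor IGF2R (0.75). IGF2BP1, which binds IGF2 mRNA, was the only one that fell by the probe used, by 1.66 on the log2 scale. A second probe of IGF2BP2, another binder of that mRNA, gave -1.96 at 80 nM and -0.65 at 8 nM, where the probe used gave -0.09 and -0.25. Of 7 genes linked with Notch and thyroid hormone, DLK2, the homologue of DLK1, fell by 1.35 and THRA, a thyroid hormone receptor, by 0.78. A second THRA probe gave -0.15, and a second NOTCH1 probe -0.89 where the probe used gave -0.08. At 8 nM limma called, by the probes used, 0 genes of the growth factor list and 0 of the Notch and thyroid hormone list. Of all genes 5.09% were called at 8 nM.

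Relatives of the proteins went the other way in several cases. Of 13 tested, 8 rose and 1 fell at 80 nM, and 4 rose at 8 nM, where of all genes 18.4% rose and 15.9% fell at 80 nM and 3.70% rose at 8 nM. The sarcoglycans SGCA (2.29) and SGCB (0.94) rose at 80 nM while SGCE fell. SGCA also rose at 8 nM, by 0.88 (SE 0.07, limma adjusted p = 0.00032). CDKN1A, which encodes p21, rose by 1.82 at 8 nM and 1.90 at 80 nM, whereas CDKN1B, which encodes p27, was the one relative that fell, by 1.35 at 80 nM (-0.44 by a second probe). The retrotransposon-derived genes RTL5 (1.18), LDOC1 (1.01), RTL8A (0.84) and RTL10 (0.83), relatives of PEG10, rose at 80 nM.

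Among 13571 named genes, the 5 whose mean-centered levels over the 9 arrays were closest to those of DLK1, by root-mean-square distance, were PPBP (0.22), MIR9-2HG (0.23), HAND2 and HOXD8 (0.28 each) and FLRT3 (0.29). Their log2 changes at 80 nM ran from -5.57 to -6.19, and their Pearson correlations with DLK1 were 0.995 to 0.998, over arrays on which the 80 nM group sets most of the variance.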

How the data were processed

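A2780 RNA was measured on 9 one-colour Agilent arrays, 3 each untreated, at 8 nM and at 80 nM DIG-MSK, grouped by the labels. The authors extracted spot intensity with Feature Extraction 10.7.3.1, and the deposited processed intensity is background-subtracted but not scaled between arrays. A series table of log2 values by the authors, close to quantile-normalized, served as an alternative. The paper names a lowess step, which has no second channel here, and a labeling kit other than that in the labels.

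Log2 intensity was taken relative to the 75th percentile of each array. Probes that stood well above background in no complete group of 3 arrays were dropped, the probe with the highest mean stood for its gene, and limma 3.58.1 in R 4.3.3 (lmFit, eBayes) was run on all 9 arrays with Benjamini-Hochberg adjustment over 21832 genes. The procedure was tested on simulated data. Named genes were all members, up to 6 called genes of each list with the largest change, those near a member, and 5 neighbours on each side. Of the 27245 probes that carry RefSeq accessions, 25715 took current symbols from RefSeq on GRCh38.p14, used for names, gene order and promoter sequence. Some listed genes are counted but not reported here. Members and lists were chosen with earlier results of these data known. Alternatives were other background correction (normexp with an offset of 50), scaling, filters, probe rules, fits, the replicate block and each array left out.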

Additional observations from a re-analysis of the deposited data

How the results depend on the processing

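Counts of calls mostly held for the 10 genes at 8 nM and for the other imprinted genes. At 80 nM against untreated, the count of the 8 genes changed with the setting and with the array left out. Of 8 genes at 80 nM against untreated, 4 were called, but 2 with normexp background correction and 2 with no filter on dim probes. With only probes well above background on all arrays 1 was called, where 5 of the 8 could be tested. The authors' table gave 3, only the groups compared 3, median scaling 5 and spike-in scaling 6. Leaving out each array gave 2 to 4. Against 8 nM, 4 were called, 2 with that strict filter and 4 to 5 with each array left out. At 8 nM, 0 of 10 were called and 0 to 1 with each array left out. Of the other imprinted genes 0 were called at 8 nM, 1 with scaling to the median and 0 to 1 with each array left out. At 80 nM 12 were called, 11 to 14 with each array left out. There normexp gave 5 up and 4 down, and spike-in scaling 2 up and 9 down. Small changes turned direction. At 8 nM, IGF2 was 0.05 with normexp and 0.13 in the authors' table, PEG10 0.00 in that table, MEG3 0.02 without replicate 2 at 8 nM (-0.23 to 0.02 with each array left out) and PEG3 0.27 without untreated replicate 2 (-0.97 to 0.27). At 80 nM against untreated, MEG3 was -0.18 with spike-in scaling, -0.52 with probes averaged and -0.01 without untreated replicate 1 (-0.01 to 0.18 with each array left out), and MEST -0.14 with spike-in scaling. Against 8 nM, MEG3 was -0.14 with spike-in scaling and -0.43 with probes averaged, and MEST -0.01 with median and -0.25 with spike-in scaling. The cause was not tested. The change of DLK1 at 80 nM against untreated ran from -6.19 to -3.79 over the other settings.

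Over all genes, normexp gave 4726 calls at 80 nM and 625 at 8 nM, against 7475 and 1111. Spike-in scaling put 7.0% of the 8 nM calls down against 27.4%, and 79.7% against 42.3% between the concentrations, where median scaling gave 54.8%. Same-numbered arrays went together weakly between untreated and 8 nM only. There, deviations from the group mean correlated at 0.1114, 0.0996 and 0.1579 for the same number and at -0.1222 to -0.0043 for different numbers. Between untreated and 80 nM these were -0.0067, -0.0783 and -0.0027 for the same number and -0.0595 to 0.0664 for different numbers. Between 8 and 80 nM they were 0.0137, -0.1201 and -0.037 for the same number and -0.1312 to 0.1208 for different numbers. With the replicate block, 0 of 10 genes were called at 8 nM, 4 of 8 at 80 nM, 5 between the concentrations (PEG3 added, adjusted p = 0.045 by limma), and 0 and 12 of the other imprinted genes. Dim probes limit PEG10, SGCE and IGF2.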
